A study of Mus musculus with 3 samples.

Results

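The 40 genes described here drive and execute the cell division cycle: cyclins and their kinases, E2F transcription factors, the proteins that license replication origins and copy DNA, and the kinases, motors and checkpoint proteins of mitosis. They were chosen by name, as a list of genes of this pathway, and they are 40 of the 21728 protein-coding genes on mouse autosomes and the X chromosome in the GENCODE M21 annotation. Accessible chromatin was mapped by DNase-seq, in which DNase I cuts open stretches such as promoters and enhancers, in Müller cells, a glial type that spans the retina. The series holds 1 group of 3 biological replicates, all labelled as primary Müller cells of postnatal day 12 mice of the B6NCrl strain with males and females pooled. The replicates carry separate biosample labels and 1 shared donor label, so the spread between them may be partly technical. The labels name no sort, no time in culture, no allele and no treatment, and the nuclei protocol they point to was written for cultured cells. Because there is no second group, no test was made, and every value is a description of these 3 libraries.

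In dividing cells, E2F factors with their DP partners switch on the genes of S phase, and the retinoblastoma protein holds them back in resting cells. A related assembly, the DREAM complex with its MuvB core, represses both S phase and mitotic genes in resting cells. It reaches S phase promoters through E2F elements and mitotic promoters through a cell cycle homology region, or CHR, which often lies near CCAAT boxes bound by NF-Y. Müller glia are among the last cells to be born in the retina and seldom divide in the adult mouse. DNase accessibility of a promoter is not a measure of its transcription, and these promoters can be accessible in resting cells.

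The sequences that show these elements are given first. Each is 150 bases centred on the gene's strongest promoter site, defined here as the region within 1 kb of a start of the gene that held a peak in all 3 replicates and had the highest mean score. Among the genes of the G1/S, E2F, licensing and DNA synthesis groups, those shown have a match to an E2F consensus (TTTCCCGC, TTTGGCGC, TTTCGCGC or TTTGCCGC, on either strand) and mean peak scores among the highest of the sites with at most 30 bases in annotated exons. Each is read 5′ to 3′ on the gene's own strand in GRCm38 (mm10), and capitals mark the E2F matches and the CCAAT boxes (CCAAT, or ATTGG on the other strand). A match is a run of letters and not evidence that a factor is bound. Mcm4 and Mcm6 encode subunits of the MCM helicase that is loaded at replication origins.
Mcm4 (chr16:15637426-15637575, minus strand): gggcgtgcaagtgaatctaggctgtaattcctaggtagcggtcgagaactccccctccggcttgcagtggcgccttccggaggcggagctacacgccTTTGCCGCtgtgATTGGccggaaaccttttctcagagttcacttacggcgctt
Mcm6 (chr1:128359656-128359805, minus strand): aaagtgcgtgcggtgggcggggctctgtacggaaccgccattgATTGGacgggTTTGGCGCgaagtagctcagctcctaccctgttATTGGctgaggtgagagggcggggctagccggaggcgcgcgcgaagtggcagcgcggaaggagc

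Positions are those of the centre of a match, counted from the nearest annotated start of the gene. In Mcm4 the E2F match lay 75 bp upstream of the start, next to 1 CCAAT box at 64 bp upstream. Mcm6 held its E2F match at 85 bp upstream, between CCAAT boxes at 96 and 53 bp upstream.

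The second set shows the 3 genes of the G2/M and mitotic groups with both a CHR match (TTTGAA or TTCGAA, on either strand) and a CCAAT box and the highest mean scores. Cdk1 encodes the kinase that drives entry into mitosis, Mki67 encodes the Ki-67 antigen of dividing cells, and Top2a encodes the topoisomerase that untangles sister chromatids. Capitals mark the CHR, CCAAT and E2F matches.
Cdk1 (chr10:69352926-69353075, minus strand): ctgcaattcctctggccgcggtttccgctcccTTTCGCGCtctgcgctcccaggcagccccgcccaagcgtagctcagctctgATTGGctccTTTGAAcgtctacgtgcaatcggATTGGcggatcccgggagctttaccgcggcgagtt
Mki67 (chr7:135716456-135716605, minus strand): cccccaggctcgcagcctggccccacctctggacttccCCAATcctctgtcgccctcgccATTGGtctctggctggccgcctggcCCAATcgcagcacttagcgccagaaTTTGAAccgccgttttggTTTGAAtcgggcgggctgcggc
Top2a (chr11:99024286-99024435, minus strand): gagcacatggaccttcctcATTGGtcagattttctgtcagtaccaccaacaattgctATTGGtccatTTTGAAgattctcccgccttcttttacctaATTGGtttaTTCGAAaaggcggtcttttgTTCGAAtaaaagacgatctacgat

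Cdk1 was the only one of the 40 genes outside the E2F and licensing groups with an E2F match, 102 bp upstream of its start, and it also had a CHR at 43 bp and CCAAT boxes at 52 and 20 bp upstream. Mki67 carried 3 CCAAT boxes, at 204, 182 and 157 bp upstream, followed by CHR matches at 132 and 114 bp upstream. Top2a had 3 CCAAT boxes, at 225, 187 and 147 bp upstream, and 3 CHR matches, at 177, 138 and 118 bp upstream, so that 1 CHR match lay between CCAAT boxes.

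All 40 genes had a peak within 1 kb of a start in every replicate and a promoter site shared by the 3 replicates. Among all 21728 protein-coding genes the share with such a site was 68.3% (14848 genes). The value given for a gene below is the score of its highest peak within 1 kb of any annotated start, a whole number between 1 and 150 that the authors deposited with each peak. What the score counts is not stated, and 150 is also the width of a peak in bp, so scores near 150 may be near a ceiling. Each score was also ranked as a percentile among all genes with a promoter peak in the same replicate.

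The 40 genes scored from 83 to 148. Their median was 138 in replicate 1, 129 in replicate 2 and 123 in replicate 3, and the mean of these medians was 130 ± 7.55 (SD, n = 3). Over all genes with a promoter peak the medians were 123, 115 and 113, with a mean of 117 ± 5.29 (SD, n = 3). In every replicate the median of the 40 genes lay above that of all genes, at the 76.2nd, 68.5th and 64.7th percentile in replicates 1, 2 and 3. Of the 40 genes, 27 (67.5%) stood above the 50th percentile in all 3 replicates, 13 (32.5%) above the 75th and 5 (12.5%) below the 50th, against 44.1%, 18.2% and 39.6% of the 14987 genes with a promoter peak in every replicate. The strongest site of every one of the 40 genes also lay under a hotspot, a wider accessible region called by the authors, whose −log10 q was at the cap of 100 in all 3 replicates. That cap was reached by 51.4%, 48.2% and 43.9% of all hotspots in replicates 1, 2 and 3, which include hotspots away from promoters. The share over the strongest promoter sites of all genes is not given here, so whether the 40 genes differ from it is not known.

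**Figure D1:**
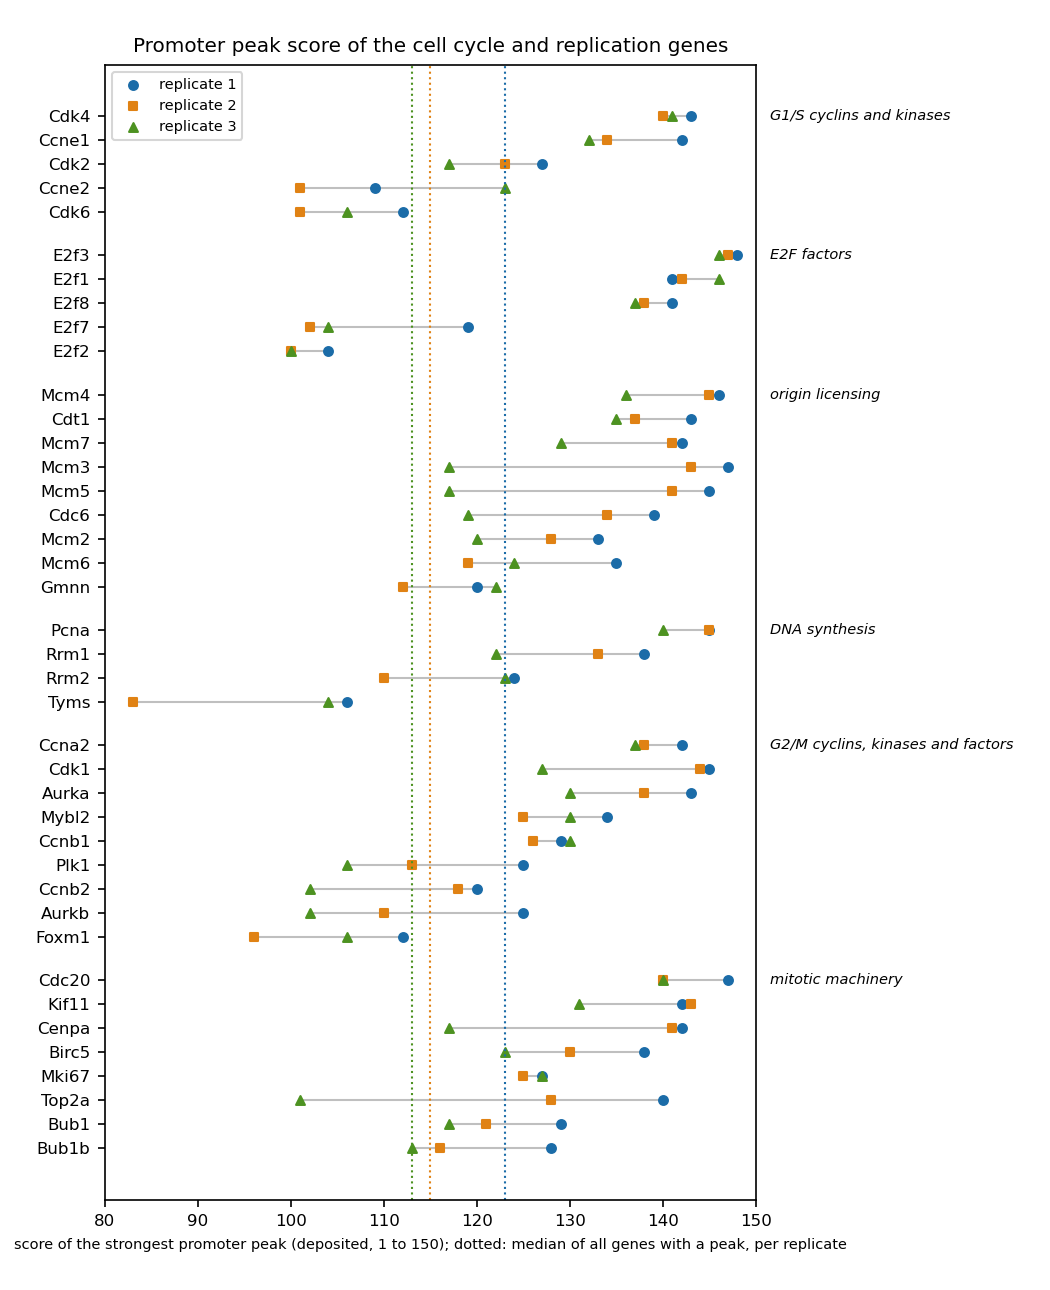
Deposited score of the highest promoter peak of each of the 40 genes (x axis, from 80 to 150, with no unit) in replicates 1 (circles), 2 (squares) and 3 (triangles), grouped by role and ordered by mean score within a role. A grey line joins the replicates of a gene, and dotted lines give the median of all genes with a promoter peak in each replicate. Scores ran from 83 (Tyms in replicate 2) to 148 (E2f3 in replicate 1), and Top2a had the longest line, 39 points.

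The G1/S cyclins and kinases carry cells from growth into DNA synthesis. Cdk4 and Cdk6 encode the kinases that pair with D-type cyclins and phosphorylate the retinoblastoma protein, and their promoters lay far apart in score. Cdk4 scored 143, 140 and 141 in replicates 1, 2 and 3. Cdk6 scored 112, 101 and 106, a mean of 106 ± 5.51 (SD, n = 3) at the 39.3rd percentile on average, with every replicate below every replicate of Cdk4. Of the E-type cyclins that activate Cdk2, Ccne1 scored 142, 134 and 132. Ccne2 scored 109, 101 and 123, and Cdk2 itself scored 127, 123 and 117. Ccne2 was the only one of the 40 genes whose percentile in replicate 3 was more than 20 points above that in both other replicates (2.5%, against 2.42% of all genes).

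Among the E2F factors the scores split widely. E2f1, E2f2 and E2f3 encode the activating E2Fs, while E2f7 and E2f8 encode the atypical repressors. E2f3 had the highest mean of all 40 genes, with scores of 148, 147 and 146 and a mean of 147 ± 1.0 (SD, n = 3), at the 98.9th percentile on average. E2f1 scored 141, 142 and 146, a mean of 143 ± 2.65 (SD, n = 3), and was highest in replicate 3. E2f2 was near the bottom of the list, with 104, 100 and 100 and a mean of 101 ± 2.31 (SD, n = 3). The repressors differed in the same way, since E2f8 scored 141, 138 and 137 while E2f7 scored 119, 102 and 104. The replicates of E2f1, E2f3 and E2f8 did not overlap with those of E2f2 and E2f7. The highest peaks of E2f2 in replicates 1 and 2 lay at an internal start that belongs to a transcript not annotated as protein-coding, and with the starts of protein-coding transcripts alone its mean score was 94.3.

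E2f3 is known to have an internal promoter that gives the shorter isoform E2f3b, and 2 of its start regions were prominent here. The outer one, at chr13:29986116-29986305, was centred 147 bp upstream of the first start and scored 148, 147 and 146. The inner one, at chr13:29984356-29984525, was centred 49 bp upstream of an internal start and scored 117, 110 and 117. The outer site was the higher in every replicate.

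Origin licensing loads the MCM helicase onto DNA before S phase, with Cdc6 and Cdt1 as loaders and geminin (Gmnn) as the inhibitor of Cdt1. Mcm4 scored 146, 145 and 136, a mean of 142 ± 5.51 (SD, n = 3), and was among the 5 highest of the 40 genes. Mcm7 scored 142, 141 and 129, Mcm2 scored 133, 128 and 120, and Mcm6 scored 135, 119 and 124. Mcm3 (147, 143 and 117) and Mcm5 (145, 141 and 117) had 2 of the widest ranges between replicates, with replicate 3 well below the others. The 6 MCM genes were all highest in replicate 1, as were 70.6% of all genes. All but Mcm6 were lowest in replicate 3, as were 55.8% of all genes. Cdc6 scored 139, 134 and 119 and Cdt1 143, 137 and 135. Gmnn was lower in replicates 1 and 2, with 120 and 112, and scored 122 in replicate 3.

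The DNA synthesis genes ranged from the second highest to the lowest mean score of the list. Pcna, which encodes the sliding clamp of the replicative polymerases, scored 145, 145 and 140, a mean of 143 ± 2.89 (SD, n = 3). Tyms, which encodes the thymidylate synthase that makes thymidine nucleotides, had the lowest mean of the 40 genes, 97.7 ± 12.7 (SD, n = 3), with scores of 106, 83 and 104. The 2 genes did not come within 30 points of each other in any replicate. Rrm1 and Rrm2 encode the subunits of ribonucleotide reductase and lay between them, with 138, 133 and 122 for Rrm1 and 124, 110 and 123 for Rrm2.

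The G2/M group holds the mitotic cyclins, their kinase and the factors that switch on late genes. Cdk1 scored 145, 144 and 127, and its partners Ccna2, Ccnb1 and Ccnb2 scored 142, 138 and 137, then 129, 126 and 130, then 120, 118 and 102. Of these 3 cyclin promoters, Ccna2 was the strongest in every replicate and Ccnb2 the weakest. Mybl2 and Foxm1 encode the transcription factors that join the MuvB core to activate mitotic genes. Mybl2 scored 134, 125 and 130. Foxm1 scored 112, 96 and 106, a mean of 105 ± 8.08 (SD, n = 3), and was below Mybl2 in every replicate. Among the mitotic kinases, Aurka scored 143, 138 and 130, against 125, 110 and 102 for Aurkb and 125, 113 and 106 for Plk1. No replicate of Aurkb or Plk1 reached the lowest score of Aurka.

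The mitotic machinery includes the anaphase activator Cdc20, the spindle motor Kif11, the centromeric histone Cenpa, the chromosomal passenger Birc5 and the checkpoint kinases Bub1 and Bub1b. Cdc20 scored 147, 140 and 140, a mean of 142 ± 4.04 (SD, n = 3), and was the highest of this group on average. Kif11 scored 142, 143 and 131, Birc5 138, 130 and 123, Bub1 129, 121 and 117, and Bub1b 128, 116 and 113. Mki67, the most used marker of dividing cells, was among the steadiest in score, with 127, 125 and 127. Its percentile was less steady, at 55.5, 62.4 and 71.7 in replicates 1, 2 and 3. Cenpa (142, 141 and 117) and Top2a (140, 128 and 101) were the least steady of the group, both lowest in replicate 3. In replicate 3 the Top2a promoter held 2 neighbouring peaks, 1 across the start at chr11:99024096-99024245 with a score of 101 that had no counterpart in the other replicates, and 1 with a score of 88 at the site of the other replicates' peaks.

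By role, the median score in replicates 1, 2 and 3 was 127, 123 and 123 for the 5 G1/S genes, 141, 138 and 137 for the 5 E2F genes, and 142, 137 and 122 for the 9 licensing genes. The medians were 131, 121.5 and 122.5 for the 4 DNA synthesis genes, 129, 125 and 127 for the 9 G2/M genes, and 139, 129 and 120 for the 8 mitotic genes. By median, the licensing and mitotic groups showed the widest gap between replicates 1 and 3. The medians of the G1/S, E2F and G2/M groups stayed within 4 points, while those of all genes with a promoter peak were 123, 115 and 113. The median percentiles of these groups therefore rose. They were 55.5, 59.7 and 64.7 for G1/S, 83.1, 84.3 and 89.4 for E2F, and 58.5, 62.4 and 71.7 for G2/M. In score, single G2/M genes fell further than their median from replicate 1 to replicate 3, such as Aurkb (125 to 102), Plk1 (125 to 106), Cdk1 (145 to 127) and Ccnb2 (120 to 102). Only Ccnb1 of that group scored higher in replicate 3 than in replicate 1 (130 against 129).

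The score of a gene differed by a median of 13 points between its highest and lowest replicate, against 14 points over all genes with a promoter peak in every replicate. The widest ranges of the 40 genes were 39 points for Top2a, 30 for Mcm3, 28 for Mcm5 and 25 for Cenpa, followed by 23 for both Tyms and Aurkb. Replicate 1 gave the highest score for 33 of the 40 genes, against 70.6% of all genes. Replicate 3 gave the lowest for 25 of the 40 genes, against 55.8% of all genes. Over the 40 genes, replicates 1 and 2 had a Spearman correlation of 0.948, whereas replicate 3 gave 0.666 with replicate 1 and 0.685 with replicate 2. The same pairs gave 0.970, 0.893 and 0.896 over all 14987 genes with a promoter peak in every replicate. These correlations are over genes, which share their libraries, and the scores of the 40 genes span a narrower range.

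Ranks showed which genes set replicate 3 apart. Mcm3, Mcm5, Cdk1, Cenpa and Top2a stood more than 20 percentile points lower in replicate 3 than in both other replicates, a gap chosen after the values were seen. They are 5 of 40 genes (12.5%), against 9 of the 65 other pathway genes (13.8%) and 867 of 14987 genes overall (5.79%). With a gap of 10 points they were 8 of 40 (20%, against 17.2% of all genes), and with 30 points 3 of 40 (7.5%, against 1.39% of all genes). Mcm3 had a percentile of 97.1, 93.2 and 55.0 in replicates 1, 2 and 3, and Top2a one of 80.7, 66.8 and 37.0. Promoter peaks of the microglia and macrophage markers also separated replicate 3, with 10 of 10 genes in replicates 1 and 2 (median score 85 and 81.5) and 1 of 10 in replicate 3, where P2ry12 scored 39 and Spi1, Csf1r, Cx3cr1, C1qa, C1qb, Aif1, Tyrobp, Itgam and Trem2 had no peak. Their part in the lower ranks of these 5 genes was not tested. A percentile in replicate 3 requires a peak there, so the choice of these 5 genes fixed that each had one. At the shared site that peak scored 88 for Top2a, 117 for Mcm3, Mcm5 and Cenpa, and 127 for Cdk1.

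**Figure D2:**
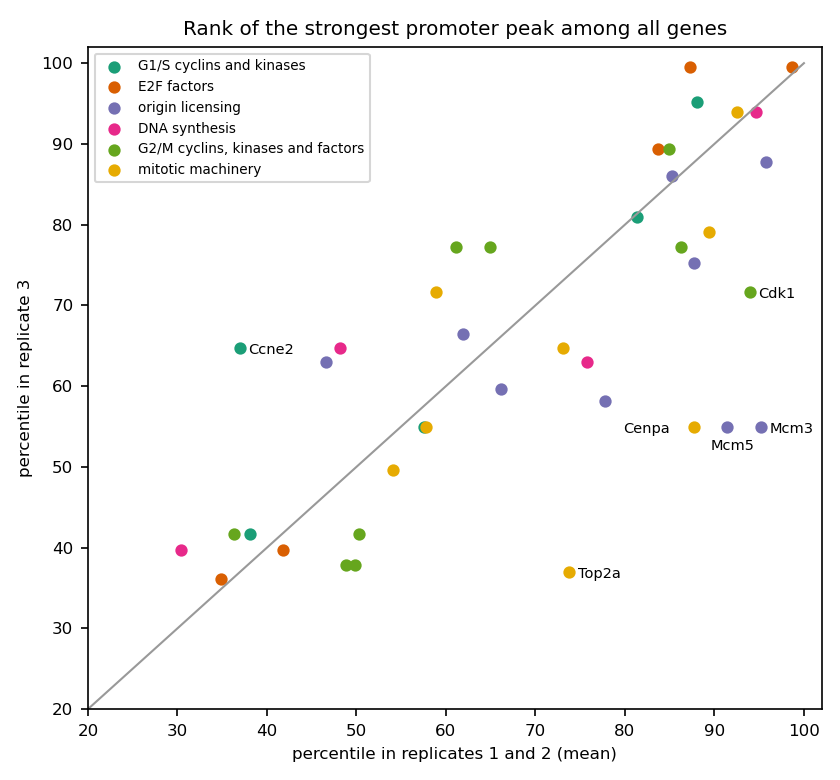
Percentile of each of the 40 genes among all genes with a promoter peak, in replicate 3 (y axis) against the mean of replicates 1 and 2 (x axis), coloured by role, both in percentile points. The line marks equal ranks, and the named genes differ by more than 20 points from both other replicates: Mcm3, Mcm5, Cdk1, Cenpa and Top2a lie below it and Ccne2 above it.

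The other marker lists differed less in presence. All 10 Müller glia markers (Rlbp1, Glul and Slc1a3 among them) had a promoter peak in every replicate, with median scores of 128, 122.5 and 111 at median percentiles of 57.1, 59.0 and 47.1. Rod markers had one at 4 of 10 genes in every replicate. Retinal progenitor markers had one at 9, 9 and 10 of 10 genes, with Sfrp2 in replicate 3 alone, endothelial markers at 6, 6 and 5 of 8, without Emcn and Tie1 in any replicate and without Cdh5 in replicate 3, and mesenchymal markers at 7 of 8 in each, all but Lum. Among all 21728 genes, 16074, 15865 and 15381 had a promoter peak in replicates 1, 2 and 3. The median scores of endothelial markers with a peak were 101, 95.5 and 79. Those of retinal progenitor markers with a peak were 84, 64 and 73. Mesenchymal markers with a peak had medians of 85, 57 and 70, and rod markers 83, 60.5 and 64. In every replicate the medians of these lists lay below that of the Müller glia markers. Peaks numbered 300290, 281205 and 184567 in replicates 1, 2 and 3, and read depth is unknown.

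The strongest promoter sites lay close to the annotated starts. Their centres were upstream of the nearest start of the gene in 33 of the 40 genes and within 200 bp of it in 38, at a median of 68 bp upstream. The same shares over all genes are not given here, so these counts cannot be called usual or unusual. The farthest was that of Cdk6, 218 bp downstream of an internal start at chr5:3344456-3344605. Altogether the 40 genes had 79 promoter sites shared by the 3 replicates, and 22 of the genes had more than 1. The median was 2 sites per gene, the same as over all genes with such a site. Cdk6 had 7, spread over several annotated starts, and no single one of them scored above 112, while E2f3 had 6 and E2f2, Mcm7 and Foxm1 had 4 each. In 34 of the 40 genes the highest peak of each replicate lay in the same region, a count with no share over all genes beside it. The exceptions were Cdk6, E2f2, Mcm7, Cdt1, Foxm1 and Top2a, whose highest peaks lay at different places in different replicates. For Cdt1 the peaks that scored 143 and 137 in replicates 1 and 2 had no counterpart in replicate 3, and the site shared by all replicates, at chr8:122567816-122567985, scored 132, 131 and 135.

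Of the 40 genes, 5 shared their strongest site with a gene that starts within 1 kb in the opposite direction, so the accessibility there cannot be assigned to 1 gene. The share over all genes is not given here, so whether 5 of 40 is many or few is not known. Cdk2 and Pmel start 149 bp apart, Mcm7 and Ap4m1 184 bp, Foxm1 and Rhno1 99 bp, Aurka and Cstf1 146 bp, and Mcm4 and Prkdc 466 bp. The strongest site lay nearer to the partner's start for Mcm7, Foxm1 and Aurka. Aurka was the only gene whose promoter sites all lay nearer to another gene, its single site at chr2:172370536-172370745 being 105 bp from the start of Aurka and 41 bp from that of Cstf1.

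E2F matches were found in the strongest promoter site of 7 of the 40 genes (17.5%), against 319 of the 14848 genes with a site shared by all replicates (2.15%). They were Mcm2, Mcm4, Mcm6, Mcm7 and Gmnn, 5 of the 9 licensing genes, together with E2f8 and Cdk1. None of the 5 G1/S genes, the 4 DNA synthesis genes or the 8 mitotic genes had one. Most matches lay upstream of the start, as in the Mcm4 and Mcm6 sequences above, but Mcm2 held its matches 85 and 89 bp downstream of its start. The absence of a match says only that these letters are not in the 150 bp window. The Mcm7 window lay nearer to the start of Ap4m1, and all 150 of its bases are in annotated exons.

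CHR matches were found in 8 of the 40 genes (20%), against 4.63% of all genes with a site. They were Ccnb2, Cdk1 and Aurkb of the 9 G2/M genes, Bub1b, Top2a and Mki67 of the 8 mitotic genes, and Mcm7 and Rrm1. In both Ccnb2 and Aurkb the match was centred 1 bp upstream of the start. Rrm1 and Bub1b carried theirs downstream, at 94 and 43 bp. A CHR and a CCAAT box stood together in 6 of the 40 genes (15%: Mcm7, Ccnb2, Cdk1, Aurkb, Top2a and Mki67), against 1.72% of all genes. In the longer RefSeq promoter window, from 250 bases before to 50 after the start, CHR matches were found in 16 of the 34 genes listed there, against 13.2% of all genes listed.

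CCAAT boxes were the most frequent of the 3 elements, in 27 of the 40 genes (67.5%), against 29.1% of all genes with a site. All 5 E2F genes, 7 of the 9 licensing genes and 7 of the 9 G2/M genes had at least 1, as did 4 of the 8 mitotic genes, 2 of the 4 DNA synthesis genes and 2 of the 5 G1/S genes. The E2f2 window lay at its internal start not annotated as protein-coding. Those of Mcm7, Foxm1 and Aurka lay nearer to the start of another gene. More than 1 CCAAT box was present in 17 of the 40 genes (42.5%), against 9.69% of all genes. The 49 CCAAT boxes lay at a median of 70 bp upstream of the start, and 46 of them were upstream. Neighbouring boxes within a site were spaced by a median of 33 bp (22 gaps, from 22 to 55 bp). The gap was 32 bp in Cdk1, Aurka and E2f7, and both gaps of Ccnb2 were 33 bp.

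**Figure D3:**
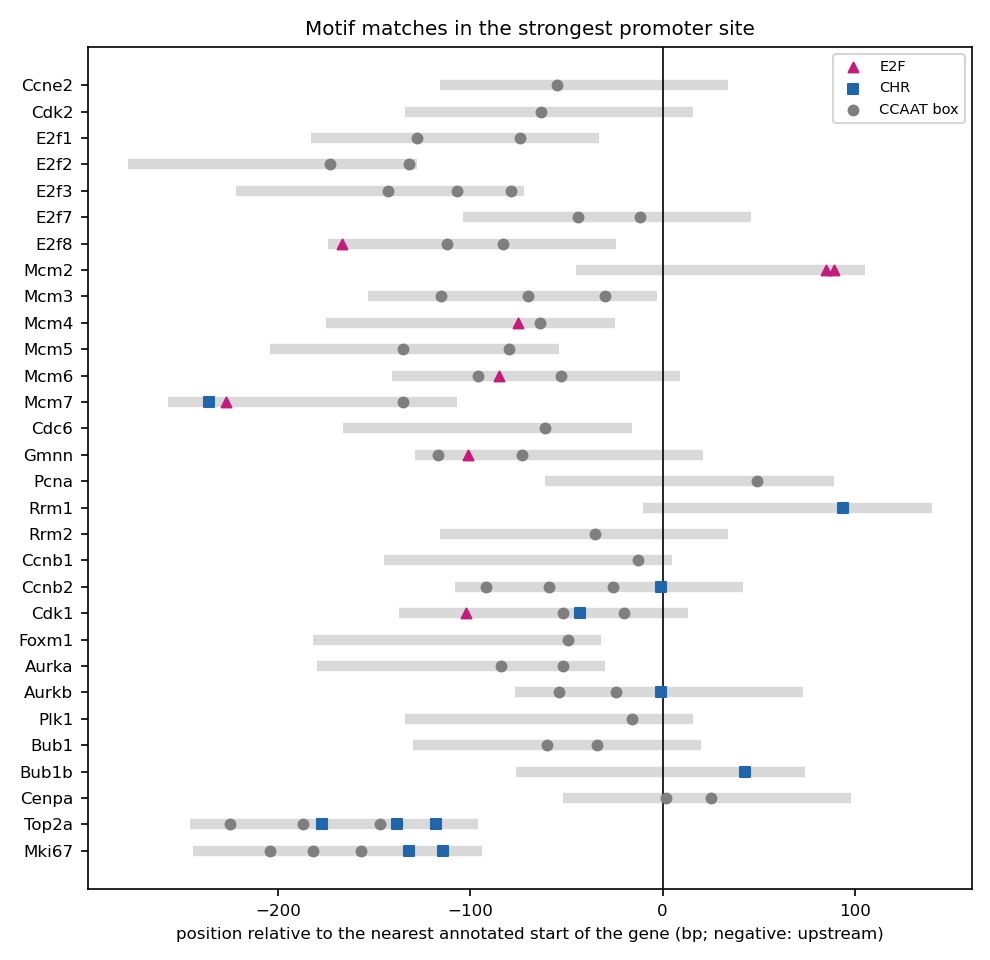
Matches to the E2F (triangles), CHR (squares) and CCAAT box (circles) letters in the 150 bp of the strongest promoter site, for the 30 genes with at least 1 match. The x axis gives the distance in bp from the nearest annotated start, with negative values upstream, grey bars the 150 bp searched, and the vertical line the start. Most CCAAT boxes lie upstream of the start, and Ccnb2, Top2a and Mki67 show several CCAAT boxes together with CHR matches.

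The remaining 10 genes (25%, against 66.6% of all genes) had none of the 3 elements in the window: Ccne1, Cdk4, Cdk6, Cdt1, Tyms, Ccna2, Mybl2, Cdc20, Kif11 and Birc5. Several of them were among the highest scores, such as Cdk4 and Cdc20, and Cdk6 and Tyms among the lowest. The GC box (GGGCGG) was found in 27 of the 40 genes (67.5%), against 54.1% of all genes. AP-1 letters (TGANTCA) occurred in 0 of the 40 sites and in 4.58% of those of all genes. The median GC content of the 150 bp was 64.0% for the 40 genes and 65.3% for all genes, and the median ratio of observed to expected CpG was 0.929 and 0.809.

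**Figure D4:**
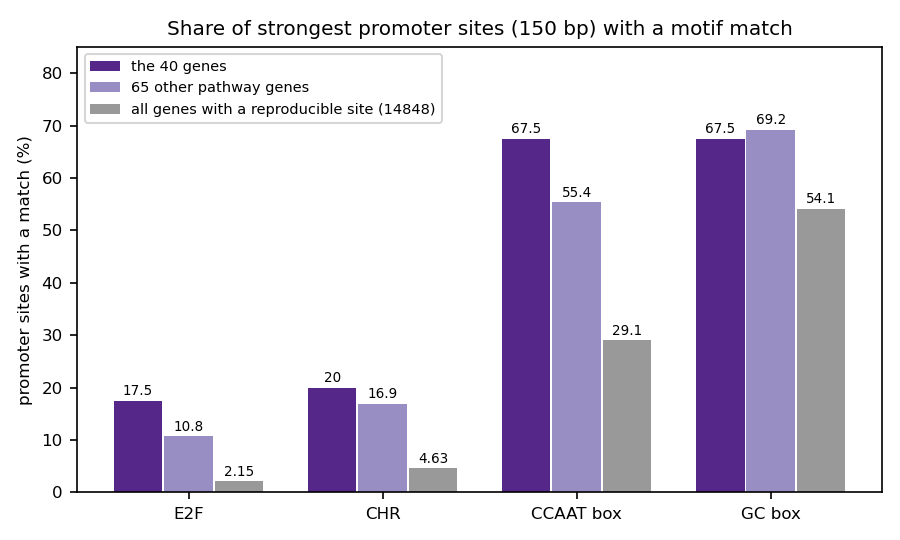
Share of genes, in percent, whose strongest promoter site (150 bp) holds an E2F, CHR, CCAAT box or GC box match, for the 40 genes (dark purple), 65 other genes of the same pathways (light purple) and all 14848 genes with a site in all replicates (grey). The shares of E2F, CHR and CCAAT box matches were 17.5%, 20% and 67.5% in the 40 genes, above those of all genes.

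Further genes of the same pathways gave a wider view: 25 of the replication fork and its origins, 13 of the RB, DP and MuvB group, and 27 of mitosis and its checkpoint. All 65 had a promoter site shared by the 3 replicates, like the 40 genes. Their median score was 137, 130 and 124 in replicates 1, 2 and 3. Replication fork genes had medians of 138, 129 and 126, RB, DP and MuvB genes 131, 126 and 121, and mitosis genes 140, 137 and 122. E2F matches were present in 4 of the 25 replication fork genes (16%: Orc1, Orc3, Gins3 and Pola1), against 2.15% of all genes. The RB, DP and MuvB genes had them in 2 of 13 (15.4%: Rbl1 and Tfdp1) and the mitosis genes in 1 of 27 (3.7%: Chek1). CHR matches were present in 7 of the 27 mitosis genes (25.9%), 2 of the 25 replication fork genes (8%) and 2 of the 13 RB, DP and MuvB genes (15.4%), against 4.63% of all genes. CCAAT boxes were present in 20 (74.1%), 12 (48%) and 4 (30.8%) of these genes, against 29.1% of all genes. Of the 9 pathway genes more than 20 percentile points lower in replicate 3, 7 belonged to the mitosis list (Cdc25c, Nuf2, Tpx2, Ect2, Incenp, Cdca8 and Nusap1) and 2 to the replication fork (Cdc45 and Fen1).

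Away from promoters, each site was counted for the gene whose start is nearest, up to 100 kb away, and its target may be another gene. The 40 genes had 124 such distal sites shared by all replicates, at 23 genes (57.5%), against 67.6% of all genes with at least 1. The mean was 3.1 sites per gene and the median 1, against 4.03 and 2 over all genes. Without replicate 3 the total was 215, since replicates 1 and 2 shared that many. The genes lie in shorter stretches of genome, with a median of 26885 bp nearest to the starts of each, against 40328 bp over all genes. Per 100 kb of that length they had 7.03 sites, against 5.63 over all genes. Counted in each replicate alone, distal peaks numbered 286, 257 and 166 in replicates 1, 2 and 3.

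By count, distal sites were concentrated at a few genes. Cdk6 and Mki67 had 18 each, Ccne1 had 13, E2f7 had 10 and Rrm2 had 7, and the first 4 of these held 59 of the 124. The stretch of genome given to the gene was also long, 259326 bp for Cdk6, 130936 for Mki67, 79157 for Ccne1 and 190180 for E2f7. The median of the 40 genes was 26885 bp. Per 100 kb these 4 genes had 6.94, 13.7, 16.4 and 5.26 sites, against 7.03 for the 40 genes together and 5.63 over all genes. The highest rates were those of Aurkb (48.5, from 4 sites in 8248 bp) and E2f1 (29.5, from 6 sites in 20313 bp), few sites in short stretches. Without replicate 3, Cdk6 had 45 and was well ahead of Mki67 with 23, while Ccne1 and E2f7 had 16 each and Rrm2 had 11. Single-replicate counts were 73, 58 and 32 distal peaks for Cdk6, 27, 29 and 18 for Mki67, 18, 21 and 16 for Ccne1, 23, 19 and 14 for E2f7, and 12, 12 and 11 for Rrm2. Cdk6 thus had the weakest promoter scores of the G1/S kinases and one of the largest numbers of distal sites. At the other end, 17 genes had none shared by all replicates: Ccne2, Cdk2, Cdk4, Mcm2, Mcm4, Mcm7, Cdt1, Pcna, Rrm1, Tyms, Ccna2, Ccnb1, Foxm1, Aurka, Plk1, Cenpa and Top2a. Without replicate 3, 11 genes had none (29 had at least 1, against 75.5% of all genes), since Cdt1 and Rrm1 then had 3 each and Ccne2, Tyms, Cenpa and Top2a had 1 each. For 10 of the 17 the stretch of genome given to the gene was at most 13158 bp.

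**Figure D5:**
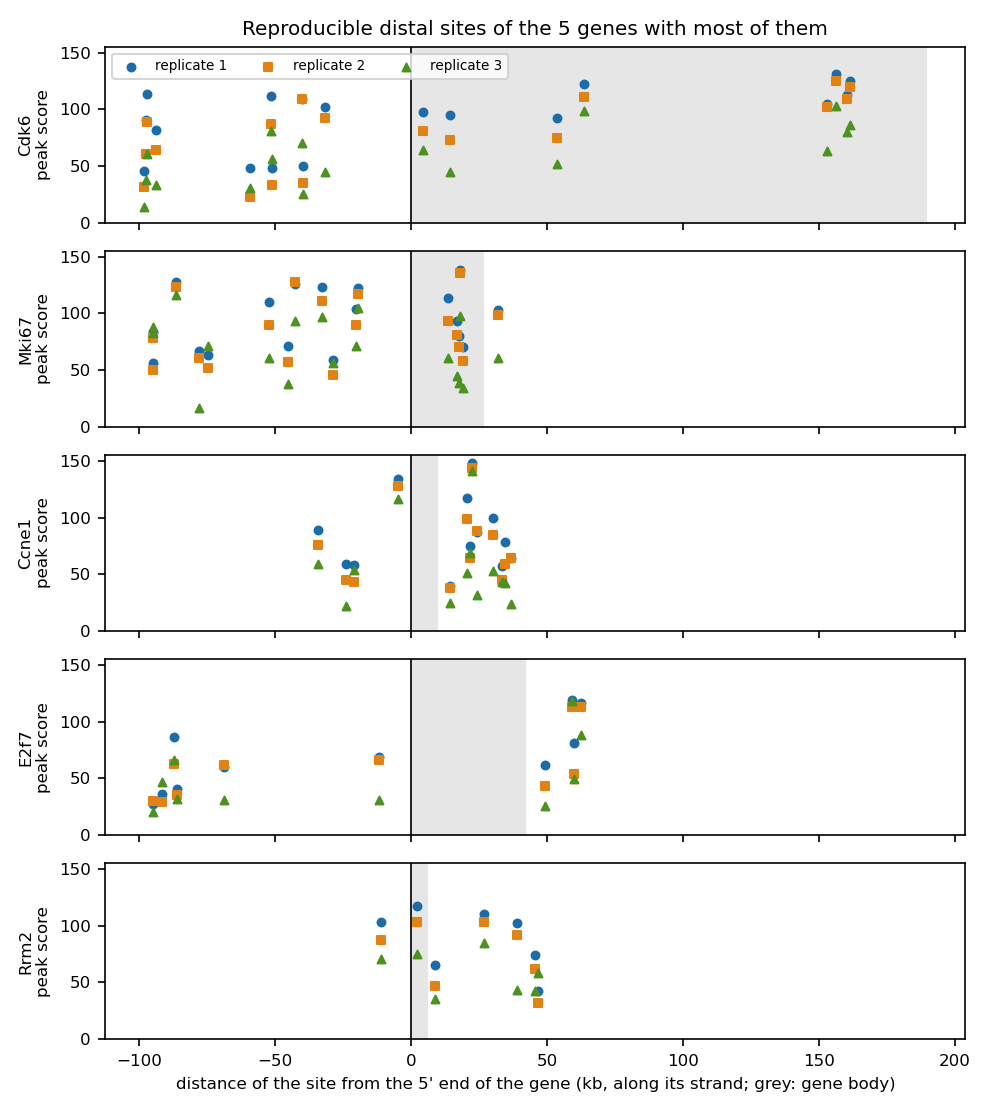
Distal sites shared by the 3 replicates at Cdk6, Mki67, Ccne1, E2f7 and Rrm2, with the deposited peak score of replicates 1 (circles), 2 (squares) and 3 (triangles) on the y axis and the distance from the 5′ end of the gene in kb, along its strand, on the x axis. Grey marks the gene body. Cdk6 and Mki67 hold 18 sites each, both within and outside the gene.

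The strongest distal site of the list lay between genes at chr7:38084976-38085165, 14204 bp from the nearest annotated start of Ccne1, and scored 148, 144 and 141. These scores were above those of the Ccne1 promoter in every replicate. A further site of Ccne1 at chr7:38112116-38112285, 4582 bp from the nearest start and upstream of the gene, scored 134, 128 and 116. The sequences of these sites are shown because they are the highest scores away from a promoter, 150 bases on the plus strand of GRCm38 (mm10). Capitals mark the GC boxes in the first, which has no CCAAT box, and in the second the CCAAT boxes and the letters of TEAD (GGAATG) and RUNX (TGTGGT) sites, of which 1 pair overlaps.
Ccne1 distal site 1 (chr7:38084996-38085145): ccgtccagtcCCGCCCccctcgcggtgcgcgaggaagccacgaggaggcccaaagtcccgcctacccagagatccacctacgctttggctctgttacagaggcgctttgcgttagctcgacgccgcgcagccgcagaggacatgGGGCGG
Ccne1 distal site 2 (chr7:38112126-38112275): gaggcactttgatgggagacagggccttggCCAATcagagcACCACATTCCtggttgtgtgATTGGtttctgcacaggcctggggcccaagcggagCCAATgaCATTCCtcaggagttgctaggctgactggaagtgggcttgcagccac

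The next strongest were 2 sites of Mki67 and 1 of Cdk6. The site at chr7:135698436-135698605 lay in an exon of Mki67, 12306 bp from its nearest annotated start, and scored 138, 136 and 98. The site at chr7:135802916-135803085 lay between genes, 86555 bp from the Mki67 start, and scored 128, 123 and 116. The site at chr5:3497656-3497925, in an intron of Cdk6, scored 131, 125 and 103. All 5 of these sites had their lowest score in replicate 3.

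Of the 124 distal sites, 86 lay between genes (69.4%), 31 in introns and 7 in exons, against 43.7% between genes for all 87488 distal sites. Only 31 lay in the body of the gene they were given to. The median distance to the nearest start was 16140 bp, against 17860 bp for all distal sites, and the median of the mean scores was 70.2, against 62.3. E2F letters were found in 0 of the 124 sites and in 0.487% of all distal sites. CCAAT boxes were found in 16.9%, against 20.7%, AP-1 letters in 17.7%, against 20.9%, TEAD letters in 16.9%, against 19.2%, and RUNX letters in 20.2%, against 17.2%. The share of distal regions with a peak in all 3 replicates was 39.9% of 311, against 39.7% of 220126 for all genes, and 28.9% were in replicates 1 and 2 alone, against 27.3%. The distal sites of the 40 genes thus had motif and replicate shares near those of all distal sites.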

How the data were processed

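DNase-seq was carried out on 3 replicates of 1 group, and the deposited peak and hotspot lists of each replicate were used, with coordinates on mm10. Per the descriptions deposited with the lists, each came from the filtered alignments of a single library, and replicates were not pooled. The peak score is a whole number from 1 to 150 deposited by the authors, whose meaning is not stated. Hotspots carry a −log10 q deposited by the authors, which runs from 1.3 to a cap of 100. For the aligner and the caller, the sources used here give no name. No counts came with the lists, so the depth of each library is unknown and no counting interval can be given.

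Peaks that repeated a position were removed (21, 20 and 23 in replicates 1, 2 and 3), and peaks on the Y chromosome and on scaffolds were left out. Peaks overlapping by at least 1 bp were merged, and a region with a peak of all 3 replicates was kept as shared (145262 of 351961). Starts were those of all transcripts of protein-coding genes in GENCODE M21. A promoter site lies within 1 kb of a start, from the nearest edge. A distal site lies farther from every such start and goes to the nearest gene within 100 kb. Motifs were exact matches on both strands in 150 bp round the centre of a site, and positions are those of the centre of the match. Sequence was read from the RefSeq genome GRCm38.p6, the same assembly as mm10, and all peaks end within its chromosome lengths. Scripts ran in Python 3.11.15 with pandas 2.3.3, numpy 2.4.6, scipy 1.17.1 and matplotlib 3.10.9 and were tested on simulated data.

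The 40 genes, the other lists, the motifs and the rules were chosen with earlier results of these data known. All 40 genes are named. The rule for values in full took the 5 highest and 5 lowest mean scores, the 5 widest ranges, the 5 genes with most distal sites and the 5 strongest distal sites. Sequences of Mcm7 and Mcm2 came before Mcm6 by score and were passed over, since 150 and 105 of their bases lie in annotated exons. A further sequence that the rule selects is not reported here. With 1 group, no test was made. Alternatives left out each replicate and changed the peaks used, the promoter window, the starts, the overlap, the distance limit and the sequence window.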

Additional observations from a re-analysis of the deposited data

How the results depend on the processing

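Few values changed with the processing, but several of the alternatives could not have changed them. All 40 genes kept a promoter site under every alternative run, except that 39 did when only sites nearest to the gene's own start were used. Leaving out a replicate loosens the rule of a peak in every replicate used. It could therefore hardly lower the number of genes with a site, and the 40 genes found each time are no check. The median promoter score was then 127 to 134 (130 with all), with 127 to 215 distal sites (124 with all, and 215 without replicate 3). E2F, CHR and CCAAT matches were in 6 to 7, 8 to 9 and 26 to 27 genes. The other alternatives gave between 99 distal sites (limit of 50 kb) and 132 (promoter window of 500 bp), with 107 when the same number of peaks, 184322, was taken from each replicate. In the RefSeq promoter, from 250 bases before to 50 after the start, CHR matches were present in 16 of the 34 genes listed, against 13.2% of all genes listed. This window is longer than the 150 bp of a site. E2F and CCAAT matches were in 10 and 25 of the 34 genes. Their shares over all genes in this window are not given here, so these counts cannot be set against the shares of the 150 bp window. Of 320 promoter scores of single genes under the alternatives, 1 moved by at least the SD between replicates, that of E2f2 (94.3 with starts of protein-coding transcripts alone). Leaving out 1 of 3 replicates cannot shift a mean that far, and the cuts on peak score and number left the highest peaks of these genes in place. Only the changes of promoter window and of starts could move these scores, so the other settings are no check of them. Of 440 counts of distal sites of single genes, 39 moved. Hotspots gave presence only and so no promoter score. The gaps of 10 and 30 percentile points were added after seeing the data. No paired analysis was possible because there is only 1 group. Unknown depth and a score near its ceiling limit comparisons between replicates.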
